A study of Mus musculus with 24 samples.

Results

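The proteasome genes described here are the genes whose symbol in the probe-to-gene table is Psm, a letter from a to g, and digits. The rule finds 47 genes, on 82 probes, among 19057 genes with a symbol in that table. Each gene is read by its probe of highest mean. Of the 47 genes 38 passed the filter on detection, and they are among 10076 named genes measured. RNA was measured on Illumina bead arrays, in which the signal of a probe stands for the level of its transcript. All values below are normalised signals on the log2 scale or differences of them, so a difference of 1 is a doubling.

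The study has 4 groups of germ cells from testes of adult B6/129sv mice. They are Nutm1 knockout (KO) round spermatids, wild-type (WT) round spermatids, KO spermatocytes and WT spermatocytes. Spermatocytes are the cells in meiosis, and round spermatids are the haploid cells that follow. Nutm1 encodes Nut, a testis protein that the series title ties to p300 and the acetylation of histone H4. The array labels name a KO, while the design text of the series speaks of a knock down, and no other treatment is given. Cells of whole testes were sedimented through a gradient of bovine serum albumin, and each fractionation pooled 3 KO or 2 WT mice. Each group has 6 arrays, of which replicates 1 to 3 are separate fractionations and the other 3 combine the RNA of 2 of these, so tests rest on 3 arrays per group.

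The proteasome is the protease that degrades proteins tagged with ubiquitin. Its 20S core is a barrel of alpha and beta rings, with the active sites on beta subunits, and the 19S cap on its end binds the tagged protein, strips the ubiquitin and unfolds the chain with a ring of ATPases. Other caps, the PA28 and PA200 activators, can replace 19S, and interferon can replace the active beta subunits with immunoproteasome forms. In the testis the core can hold Psma8, an alpha subunit made in germ cells in place of Psma7, and PA200 is linked to the degradation of acetylated histones during spermatid maturation.

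The direct arrays had median signals of 136 to 171 and detected 13849 to 16244 of 45281 probes. Nutm1 was lower in KO round spermatids, with a difference of -1.50 (SE 0.24, adjusted p = 0.00156). In KO against WT spermatocytes its difference of -0.65 did not pass (SE 0.24, adjusted p = 0.546). Its probe was still detected on 3 KO round spermatid and 2 KO spermatocyte arrays. The round spermatid marker list had 13 of 16 measured genes higher in round spermatids than in spermatocytes of either genotype and none lower. Of the spermatocyte list, 5 of 14 measured genes were lower in KO round spermatids than in KO spermatocytes and 3 were higher, and in WT 6 were lower and 1 was higher. The median stage difference of that list was 0.28 in KO and -0.44 in WT. It averaged 8.28, 8.71 and 8.92 on the KO spermatocyte arrays, against 8.48, 8.53 and 8.69 on the KO round spermatid arrays. The KO spermatocyte fraction of replicate 1 was thus not set apart by these markers. Lists of other cell types were read in the fractions and are given beside the comparisons in which members were called. Bulk signal cannot tell fewer cells of a type from less RNA per cell. The mixed arrays of KO spermatocytes stood apart. The 38 members on them lay a median of 0.72, 0.48 and 0.45 below the mean of the parent arrays, whereas on the other 9 mixed arrays the median gap ran from -0.20 to 0.04. Over all 12705 features the typical size of the gap was 0.36 to 0.50 on the mixed KO spermatocyte arrays, against 0.16 to 0.23 on the others.

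In KO round spermatids 5 genes of the 19S cap were higher than in WT round spermatids, and no member was lower. They are Psmc4, an ATPase of the ring that unfolds substrates, Psmd4, a receptor for ubiquitin chains, Psmd12 and Psmd13, subunits of the lid, and Psmd5, a chaperone that helps build the cap. Their differences lay between 0.52 and 0.63. In the array-wide comparison 6.89% of the 12705 features were higher and 7.99% were lower in KO round spermatids, against 5 of 38 members (13.2%) higher and none lower. The median difference of the 38 members was 0.23, and that of all features was 0.12. In the same comparison the macrophage and immune list had 1 of 14 measured genes higher and a median of 0.78, the spermatogonia list 1 of 6 higher (Elavl2) and a median of 0.58, and the spermatocyte list 1 of 14 higher (Ccnb3) and a median of 0.14. The Sertoli list had 3 of 9 lower and a median of 0.10, and the Leydig list had none of 4 called and a median of 0.39. The peritubular and endothelial list had 1 of 5 lower and a median of 0.09. The round spermatid list had 1 of 16 lower and a median of -0.05. The 1 measured erythroid gene differed by -1.14 and was not called. The part of these lists in the result was not tested.

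Psmd4 read 13.48, 13.41 and 13.54 on the KO round spermatid arrays, against 12.95, 12.89 and 13.04 on the WT round spermatid arrays. All KO arrays lay above all WT arrays, and the difference was 0.52 (SE 0.14, adjusted p = 0.0296). In spermatocytes its arrays overlapped, with 13.91, 14.06 and 13.81 in KO and 13.90, 13.93 and 13.86 in WT.

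Psmd13 read 12.62, 12.75 and 12.84 in KO round spermatids, against 12.24, 12.16 and 12.13 in WT round spermatids. The groups did not overlap, and the difference was 0.56 (SE 0.16, adjusted p = 0.0338). In spermatocytes it read 12.96, 13.30 and 13.39 in KO, against 13.20, 13.29 and 13.29 in WT, and the groups overlapped.

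Psmc4 read 11.16, 11.27 and 11.44 in KO round spermatids, against 10.83, 10.71 and 10.66 in WT round spermatids. These too lay apart, by 0.55 (SE 0.17, adjusted p = 0.0445). Its KO spermatocyte arrays read 11.63, 11.94 and 11.75 and its WT spermatocyte arrays 11.77, 12.15 and 11.79, which overlap.

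Psmd12 read 11.53, 11.33 and 11.59 in KO round spermatids, against 10.92, 11.13 and 10.78 in WT round spermatids. The difference was 0.54 (SE 0.16, adjusted p = 0.0446), and again no array crossed. Its second measured probe, detected on 2 of 3 arrays in each of these groups, read a difference of -0.06, so the rise rests on the brighter probe. In spermatocytes Psmd12 read 11.32, 11.52 and 11.31 in KO and 10.99, 11.22 and 11.23 in WT, where the KO arrays also lay above, with a difference of 0.23 that did not pass (adjusted p = 0.897).

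Psmd5 read 7.12, 6.96 and 7.22 in KO round spermatids, against 6.26, 6.84 and 6.32 in WT round spermatids. The difference was 0.63 (SE 0.19, adjusted p = 0.0490), and replicate 2 was the highest of the WT arrays. In spermatocytes it read 7.30, 7.46 and 7.61 in KO, against 7.06, 7.28 and 7.47 in WT, which overlap.

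**Figure D1:**
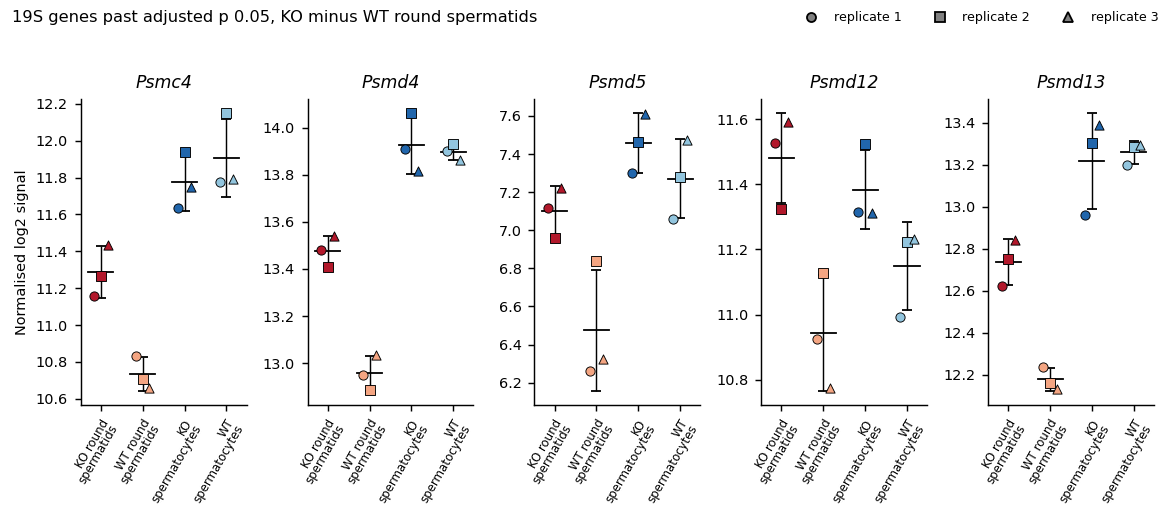
Normalised log2 signal of the 5 19S genes that were higher in KO than in WT round spermatids, in each of the 12 direct arrays. Points are arrays by replicate, and bars are the mean and SD (n = 3). In round spermatids every KO point lies above every WT point, and the spermatocyte points of both genotypes overlap except in Psmd12.

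Promoter windows from RefSeq (GRCm38.p6, 250 bases before to 50 after the start) were found for 39 of the 47 genes, in 42 windows. They are shown for 3 of the genes that rose together in KO round spermatids, since these carry a match to an ETS site, and for Psmd10, which had the largest rise between stages. Capitals mark every match, on either strand, to an ETS site, spelled CCGGAAG, to the letters of the CCAAT box, or to the core of an antioxidant response element, spelled TGACNNNGC. The cAMP response element, spelled TGACGTCA, was searched too. No matches overlap in the windows shown. Psmd4 lies on the minus strand at chr3:95042565-95042864, Psmd12 on the plus strand at chr11:107479278-107479577, Psmd13 on the plus strand at chr7:140882144-140882443 and Psmd10 on the minus strand at chrX:140956662-140956961.
Psmd4: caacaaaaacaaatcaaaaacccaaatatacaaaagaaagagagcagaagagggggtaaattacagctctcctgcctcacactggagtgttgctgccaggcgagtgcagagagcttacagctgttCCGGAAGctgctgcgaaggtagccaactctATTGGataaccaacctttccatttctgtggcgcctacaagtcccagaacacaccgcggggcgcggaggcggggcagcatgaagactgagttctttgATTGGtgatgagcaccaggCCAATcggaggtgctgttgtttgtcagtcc
Psmd12: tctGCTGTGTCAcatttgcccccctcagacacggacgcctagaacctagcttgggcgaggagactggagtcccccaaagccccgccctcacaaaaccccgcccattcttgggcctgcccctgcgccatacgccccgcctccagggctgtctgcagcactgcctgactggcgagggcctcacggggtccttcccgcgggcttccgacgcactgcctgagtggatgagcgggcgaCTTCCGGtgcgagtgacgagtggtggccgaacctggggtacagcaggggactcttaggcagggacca
Psmd13: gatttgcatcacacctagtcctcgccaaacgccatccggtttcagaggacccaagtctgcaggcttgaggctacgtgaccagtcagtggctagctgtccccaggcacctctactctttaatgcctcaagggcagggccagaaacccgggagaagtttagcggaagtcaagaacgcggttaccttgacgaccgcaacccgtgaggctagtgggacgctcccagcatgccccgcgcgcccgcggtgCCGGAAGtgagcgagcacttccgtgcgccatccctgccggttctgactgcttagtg
Psmd10: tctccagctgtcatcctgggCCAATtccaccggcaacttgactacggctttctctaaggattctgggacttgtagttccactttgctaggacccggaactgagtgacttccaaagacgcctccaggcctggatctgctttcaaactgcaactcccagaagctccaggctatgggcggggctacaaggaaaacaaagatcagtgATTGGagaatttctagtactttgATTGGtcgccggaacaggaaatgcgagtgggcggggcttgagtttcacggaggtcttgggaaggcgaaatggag

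The ETS site starts 125 bases before the start in Psmd4, 17 bases before it in Psmd12 and 6 bases before it in Psmd13. Psmd12 holds an antioxidant response element core as well, 247 bases before its start. The windows of Psmc4 and Psmd5 hold none of the 4 motifs. An ETS site was found in 15 of the 42 proteasome windows (35.7%), against 8.86% of all 32851 windows. The antioxidant response element core was in 14.3% of the proteasome windows, against 12.4% of all, and the CCAAT box in 33.3%, against 37.4%. The cAMP response element was in none of the 42, against 1.79% of all. These are matches of letters, and no binding was measured.

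These 5 calls are close to the threshold. With cyclic loess in place of quantile normalisation none of the 38 was called, and the members' median was 0.12 while that of all features moved by -0.14 to -0.02. Relative to the median of all features the members lay 0.12 higher with quantile and 0.15 higher with cyclic loess normalisation. No member was called when KO round spermatid replicate 1, 2 or 3 or WT round spermatid replicate 3 was left out in turn, 1 was without WT replicate 2, and 2 were without WT replicate 1. Spermatocyte arrays enter the shared estimate of the spread, and 3 were called without KO spermatocyte replicate 2 and 2 without WT spermatocyte replicate 2. The authors' deposited processed values called 7 members and array weights 9, all higher, while 8.23% and 17.1% of all features were higher under those settings.

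Across the set 33 of the 38 differences were above 0, against 59.2% of all features. With cyclic loess 23 were, against 48.0% of all features. In 16 members all KO arrays lay above all WT arrays, and in none did they lie below. Over all features these shares were 26.1% and 17.3%.

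By role, the 19S non-ATPase genes, cap chaperones included, had 4 of 12 measured members higher and a median difference of 0.34. Of these Psmd1, a large scaffold subunit of the base, reached 0.67 and just missed the threshold (SE 0.21, adjusted p = 0.0549). Psmd1 read 12.41, 12.45 and 12.47 in KO round spermatids, against 12.16, 11.51 and 11.64 in WT round spermatids. The second bright probe of Psmd1 gave 0.58 (adjusted p = 0.0589). Psmd14, the deubiquitinase of the lid, read 0.29 by its brighter probe and did not pass, whereas its other probe read 1.08 (adjusted p = 0.00707) but was detected on only 1 of the 3 WT round spermatid arrays. The 5 ATPases had a median of 0.30, of which only Psmc4 passed.

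In the 20S core no gene passed. The 5 measured alpha subunits had a median difference of 0.29 and the 7 beta subunits 0.13. The largest were Psmb4, at 0.44 (adjusted p = 0.0882), and Psma7, at 0.41 (adjusted p = 0.4002). The 4 activators had a median of 0.20 and the 3 assembly chaperones 0.23, also with none called.

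In KO against WT spermatocytes no member was called. The lowest adjusted p was 0.817, for Psme4, no member had an unadjusted p under 0.05, and limma called 0.834% of all features here. The median difference of the members was -0.07, against 0.00 for all features, and 27 of 38 were below 0. The mixed arrays alone called 24 members, 21 of them lower in KO, but they are the arrays that stood apart from their parents. The difference between the stages of KO minus WT was called for none of the 38, against 1.49% of features. Its median was 0.34 in the members and 0.09 over all features, and 6 members had an unadjusted p under 0.05, all of them with a larger KO effect in round spermatids. These include Psmc4 (0.68, SE 0.24, adjusted p = 0.1998) and Psmd13 (0.60, SE 0.22, adjusted p = 0.230). Round spermatids thus had calls and spermatocytes none, while the difference itself did not pass for any gene.

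**Figure D2:**
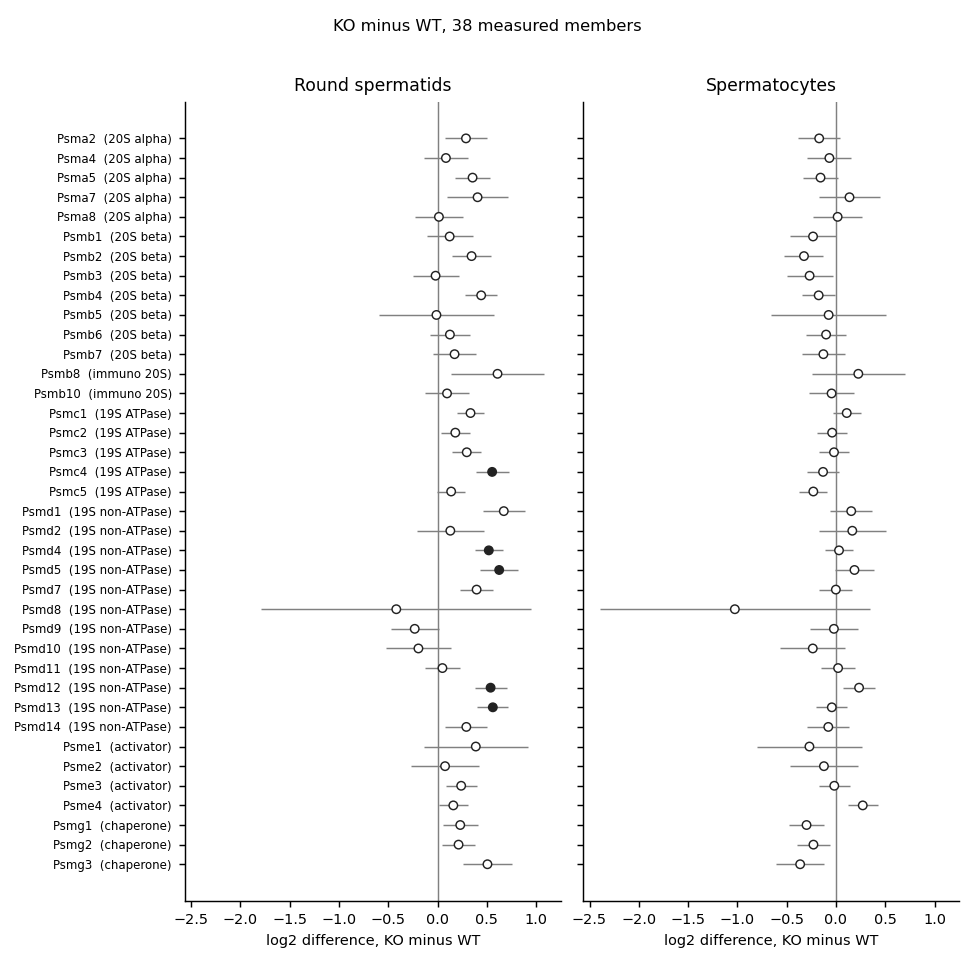
Log2 difference KO minus WT for the 38 measured members, by subunit group, in round spermatids and in spermatocytes. Points are fitted differences and bars their standard errors, and filled points passed an adjusted p of 0.05. In round spermatids 33 points lie right of 0, 5 of them filled, and in spermatocytes 11 do, none filled.

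The comparison of stages asks which members change as spermatocytes become round spermatids. In KO 14 of 38 members were lower in round spermatids than in spermatocytes and 1, Psmd10, was higher. In WT 21 were lower and 1, again Psmd10, was higher. Over all features 26.4% were higher and 24.0% lower in KO, and 28.4% were higher and 31.9% lower in WT. The median difference of the members was -0.29 in KO and -0.61 in WT, against 0.01 in KO and -0.12 in WT for all features. With cyclic loess the WT median of all features moved by 0.22, and the members lay 0.46 below it, against 0.48 below with quantile normalisation. Between the same stages the Leydig list had 2 of 4 measured genes lower in KO and 4 in WT, with medians of -2.74 and -3.71. The macrophage and immune list had 13 of 14 higher in KO and 10 in WT, with medians of 1.97 and 1.41, and the Sertoli list 7 of 9 in KO and 5 in WT, with medians of 1.31 and 0.81. The spermatogonia list had 2 of 6 higher in KO and 1 in WT, with medians of 0.57 and -0.25. The spermatocyte list, which should fall, had medians of 0.28 in KO and -0.44 in WT. The peritubular and endothelial list had 1 of 5 higher in KO and 2 in WT, with medians of -0.20 and 0.18. The 1 measured erythroid gene was higher by 2.74 in KO and by 3.69 in WT. The part of these lists in the result was not tested.

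All 14 members lower in KO were among the 21 lower in WT. The direction matched in both genotypes for 32 of 38 members, with 27 lower and 5 higher. Since cells of the 2 stages come from the same fractionations, the block on fractionation was fitted too. With that replicate block KO had 9 called, 1 higher and 8 lower, and WT had 21. On the mixed arrays alone, KO called 17 higher and 8 lower, with a median of 0.26, which turns the direction. Those arrays include the KO spermatocyte mixtures that lay below their parents.

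**Figure D3:**
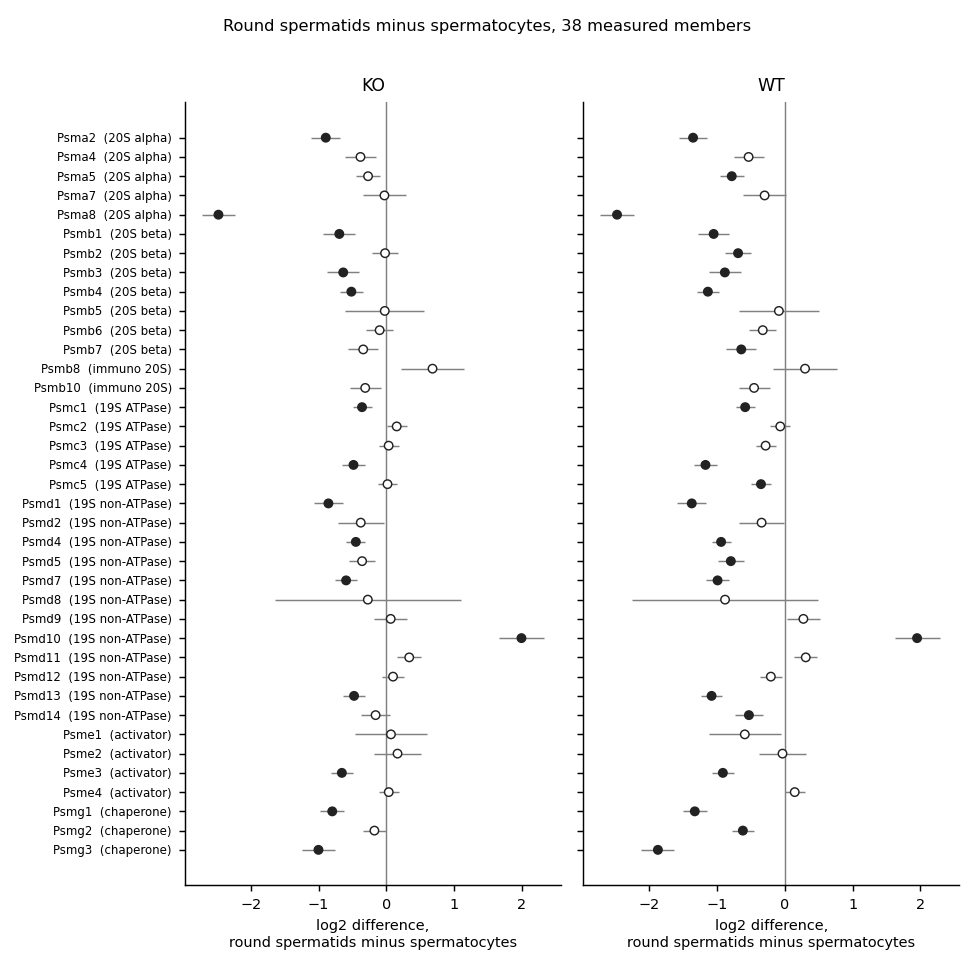
Log2 difference of round spermatids minus spermatocytes for the 38 measured members, in KO and in WT. Points are fitted differences, bars are standard errors, and filled points passed an adjusted p of 0.05. Psma8 lies farthest left, near -2.5 in both panels, and Psmd10 farthest right, near 2.0.

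Psma8, the germ cell alpha subunit, had the largest fall. It read 9.32, 9.54 and 9.65 in KO round spermatids, against 11.36, 12.39 and 12.21 in KO spermatocytes. It read 9.64, 9.52 and 9.31 in WT round spermatids, against 11.77, 12.16 and 11.97 in WT spermatocytes. The differences were -2.48 in KO (adjusted p = 2.8e-05) and -2.48 in WT (adjusted p = 1.07e-05), which is 5.57 and 5.56 times lower. Its second probe gave -2.33 and -2.35. Between KO and WT it differed by 0.01 in round spermatids and 0.02 in spermatocytes. Psma7, the subunit it replaces in the core, differed by -0.03 in KO and -0.30 in WT and did not pass.

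Psmg3, an assembly chaperone of the core, read 6.82, 6.32 and 6.77 in KO round spermatids, against 7.43, 8.08 and 7.41 in KO spermatocytes. It read 6.43, 6.10 and 5.87 in WT round spermatids, against 8.34, 7.90 and 7.78 in WT spermatocytes. The stages did not overlap in either genotype. The differences were -1.003 in KO (adjusted p = 0.00491) and -1.87 in WT (adjusted p = 5.44e-05). Psmg3 was detected on 2 of the 3 WT round spermatid arrays, so the size of its WT fall is uncertain. On the mixed arrays alone its KO difference was -0.15 and did not pass.

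Psmg1, which pairs with Psmg2 in another assembly chaperone, read 9.29, 9.06 and 9.51 in KO round spermatids, against 10.08, 10.27 and 9.90 in KO spermatocytes. In WT it read 9.02, 9.24 and 8.91 in round spermatids, against 10.34, 10.53 and 10.28 in spermatocytes. It fell by 0.80 in KO (adjusted p = 0.00285) and by 1.33 in WT (adjusted p = 6.29e-05).

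Psma2 of the alpha ring read 11.34, 11.06 and 11.62 in KO round spermatids, against 12.42, 12.28 and 11.999 in KO spermatocytes. In WT it read 11.32, 11.03 and 10.81 in round spermatids, against 12.45, 12.63 and 12.13 in spermatocytes. It fell by 0.90 in KO (adjusted p = 0.00419) and by 1.35 in WT (adjusted p = 0.000183). Psmd1 read 13.02, 13.20 and 13.67 in KO and 13.29, 13.18 and 12.96 in WT spermatocytes, above all its round spermatid arrays. Psmd1 fell by 0.86 in KO (adjusted p = 0.00586) and by 1.37 in WT (adjusted p = 0.000182), and its second bright probe gave -0.80 and -1.34. The other 9 called in both genotypes fell by between 0.36 and 1.17.

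Psmd10, also called gankyrin, is a chaperone of 19S assembly whose gene lies on the X chromosome. It read 10.47, 10.83 and 10.67 in KO round spermatids, against 9.21, 8.84 and 7.94 in KO spermatocytes. In WT it read 10.82, 11.03 and 10.71 in round spermatids, against 8.54, 8.57 and 9.58 in spermatocytes. The rises were 1.99 in KO (adjusted p = 0.00052) and 1.95 in WT (adjusted p = 0.000316), and its other probes gave 1.75 and 2.28 in KO and 2.03 and 2.37 in WT. Of 311 features on the X chromosome, 204 were higher in KO round spermatids than in KO spermatocytes and 141 in WT, with medians of 0.99 and 0.55. In KO 29 of the 311, Psmd10 included, reached its difference or more, and in WT 66 did. The round spermatid marker list averaged 11.73, 11.98 and 12.78 on the WT spermatocyte arrays, highest on replicate 3, as Psmd10 was. On the KO spermatocyte arrays it averaged 12.21, 12.07 and 12.10. The part of this list in the result was not tested.

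**Figure D4:**
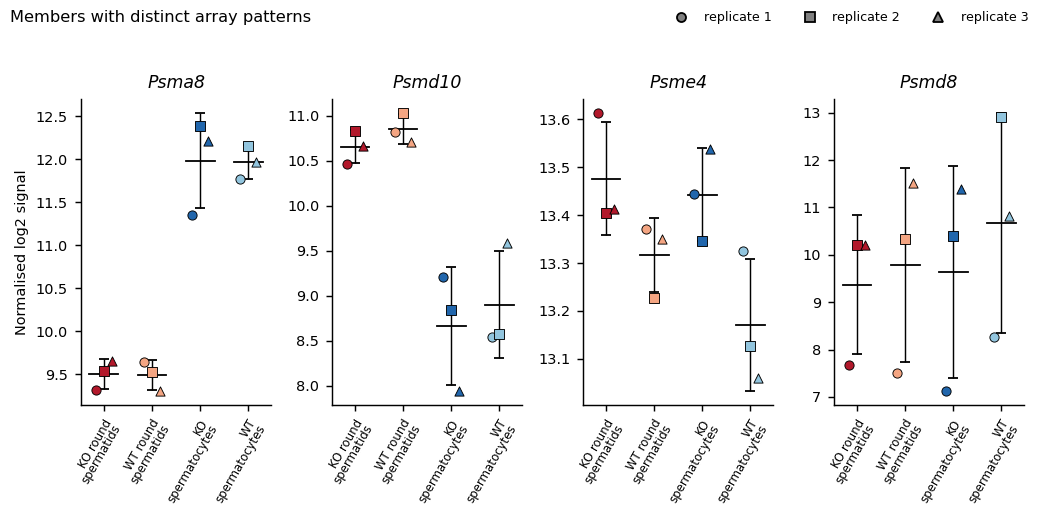
Normalised log2 signal of Psma8, Psmd10, Psme4 and Psmd8 in each direct array, with means and SD (n = 3), each panel on its own axis range. Psma8 is lower and Psmd10 higher in round spermatids, Psme4 is near level across groups, and replicate 1 of Psmd8 lies far below the others in every group.

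Of the activators, Psme4 (PA200) read 13.61, 13.40 and 13.41 in KO round spermatids, against 13.37, 13.23 and 13.35 in their WT counterparts. In spermatocytes it read 13.44, 13.35 and 13.54 in KO, against 13.33, 13.13 and 13.06 in WT. It passed in no comparison, with stage differences of 0.03 in KO and 0.15 in WT, although its dimmer second probe gave 1.15 in WT (adjusted p = 0.00241). Psme3 (PA28 gamma) fell by 0.66 in KO (adjusted p = 0.00445) and by 0.91 in WT (adjusted p = 0.000347). Psme3 read 9.08, 8.92 and 8.94 in KO and 8.95, 8.63 and 8.64 in WT round spermatids, below 9.50, 9.71 and 9.71 in KO and 9.77, 9.65 and 9.54 in WT spermatocytes. The Psme3 arrays of the stages did not overlap in either genotype.

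Some second probes read another direction. Psmc2, an ATPase, was level by its bright probe (0.15 in KO and -0.07 in WT), while its dimmer probe was 1.70 higher in KO and 1.93 higher in WT round spermatids. RefSeq lists 2 start sites for Psmc2, and which transcript each probe reads is not given. Psmg2 was lower in WT by its brightest probe (-0.62, adjusted p = 0.00601) and higher by another (0.50, adjusted p = 0.0279). Of the 19 genes with more than 1 measured probe, all probes had the same sign in 15 in the WT stage comparison and in 12 in KO against WT round spermatids.

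The immunoproteasome genes and the PA28 alpha and beta genes, Psme1 and Psme2, are inducible by interferon. Psmb8, the immunoproteasome form of a catalytic beta subunit, read 6.99, 5.49 and 6.92 in KO round spermatids, against 5.87, 5.65 and 6.06 in WT round spermatids. It was detected on 7 of 12 direct arrays, and its difference of 0.61 did not pass (SE 0.47, adjusted p = 0.401). Of 17 macrophage and immune genes 14 were measured, 1 of which (H2-Aa) was higher in KO round spermatids, and the list averaged 8.50, 7.24 and 8.12 on the same KO arrays, against 7.43, 6.83 and 7.61 on the WT arrays. Replicate 2 was lowest in both within each genotype. It was also lowest in the interferon list (6.70 in KO and 6.35 in WT) and in the Leydig list (6.15 and 5.96). In KO the Sertoli and spermatogonia lists were lowest on replicate 1 instead (7.78 and 8.16). What part these lists have in the result was not tested. Psmb10 read 7.57, 7.20 and 7.61 in KO and 7.38, 7.24 and 7.47 in WT round spermatids, and 8.21, 7.74 and 7.37 in KO and 7.81, 8.09 and 7.56 in WT spermatocytes, where the genotypes overlapped in both stages, the KO stages overlapped too, and the WT round spermatid arrays lay below the WT spermatocyte arrays (difference -0.45, adjusted p = 0.103). Psmb9 was detected on 1 array only. Of 10 measured interferon response genes, 1 rose in KO round spermatids, H2-K1, by 0.95 (adjusted p = 0.00363), and 1 of 10 is near the 6.89% of all features. All 10 differences were above 0, however, against 59.2% of all features. Their median was 0.42, against 0.12 for all features. Between stages 1 of the 10 was higher and 1 lower in each genotype, H2-K1 in KO and Nlrc5 in WT being higher and Tapbp lower in both, which is below the shares of 24.0% to 31.9% over all features. Nlrc5 was detected on no WT array of either stage, so its call there compares signals below detection.

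In spermatocytes the same genes varied within a group. Psme1 (PA28 alpha) read 10.34, 7.95 and 7.75 in KO, against 8.56, 9.52 and 8.78 in WT. Psme2 (PA28 beta) read 6.88, 5.84 and 5.70 in KO, against 5.71, 6.70 and 6.37 in WT, and Psmb8 read 6.80, 5.39 and 5.17 in KO, against 5.07, 6.17 and 5.44 in WT. All 3 were highest on KO replicate 1 and next on WT replicate 2. Some other lists had the same 2 arrays highest among spermatocytes. The interferon list averaged 7.42, 6.44 and 6.57 in KO and 6.34, 6.97 and 6.54 in WT, the macrophage and immune list 6.33, 5.57 and 5.40 in KO and 5.45, 6.15 and 5.68 in WT, and the peritubular and endothelial list, with 5 of 11 genes measured, 8.03, 7.15 and 7.14 in KO and 6.53, 7.72 and 7.16 in WT. The Leydig list, with 4 of 7 genes measured, was likewise highest on them, at 12.01, 7.90 and 9.93 in KO and 10.27, 10.9985 and 9.98 in WT. Cyp17a1, Cyp11a1 and Insl3 of that list were detected on all 6 spermatocyte arrays and Star on 4. On the remaining spermatocyte arrays the Leydig list ran against the 3 genes. It was higher on KO replicate 3 than 2 and on WT replicate 1 than 3, where the 3 genes were lower. The macrophage and immune list and the peritubular and endothelial list had the order of the 3 genes within each genotype. The interferon list had it in WT only. The 1 measured erythroid gene was highest on the same arrays, at 6.08 on WT replicate 2 and 5.74 on KO replicate 1. The Sertoli list was highest on WT replicate 3 (7.59), but close to it on KO replicate 1 (7.56) and WT replicate 2 (7.52). It read 6.76 and 6.77 on KO replicates 2 and 3 and 7.31 on WT replicate 1. The spermatogonia list was highest on WT replicates 2 and 3 (8.32 and 8.15). The part of these lists in the result was not tested.

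**Figure D5:**
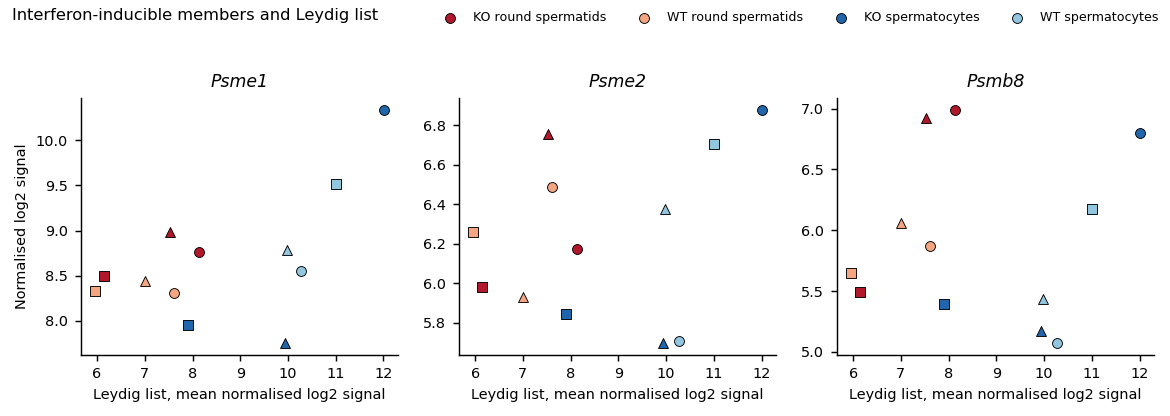
Normalised log2 signal of Psme1, Psme2 and Psmb8 against the mean of the 4 measured Leydig genes, for the 12 direct arrays. KO spermatocyte replicate 1, at 12.01 on the horizontal axis, and WT spermatocyte replicate 2, at 10.9985, are the spermatocyte arrays with the highest values in all panels. Within each genotype the remaining spermatocyte arrays have opposite orders on the horizontal and vertical axes.

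Other genes of the ubiquitin pathway were taken from a list of 46, 32 of them with a probe and 27 measured. In KO round spermatids 4 were higher and 2 lower, against 6.89% and 7.99% of all features. The higher ones were Vcp, the segregase that pulls tagged proteins from complexes (0.83, SE 0.16, adjusted p = 0.0055), Rnf4, a ubiquitin ligase (0.82, adjusted p = 0.0165), Fzr1 (0.68, adjusted p = 0.0128) and Cdc20 (0.52, adjusted p = 0.0490), which activate the anaphase-promoting complex. Rad23b (-0.59) and Ubqln4 (-0.64), which carry ubiquitinated proteins to the proteasome, were lower. None of the 27 was called in spermatocytes or in the difference between stages. Between stages, 7 were higher and 10 lower in KO round spermatids, and 8 were higher and 11 lower in WT. The higher ones are 25.9% of the list in KO and 29.6% in WT, against 26.4% and 28.4% of all features, and the lower ones 37.0% and 40.7%, against 24.0% and 31.9%. Ddi1, a protease of the pathway, was 2.27 higher in KO and 2.78 higher in WT round spermatids (adjusted p = 0.000215 and 2.67e-05). Vcp was 0.94 lower in KO and 1.64 lower in WT (adjusted p = 0.000663 and 1.06e-05), and Fbxo7, a ubiquitin ligase subunit known to bind the proteasome, 1.15 and 1.33 lower (adjusted p = 0.000664 and 0.000131).

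Psmd8, a lid subunit, varied more than any other member in every group. It read 7.67, 10.21 and 10.21 in KO round spermatids, against 7.51, 10.34 and 11.51 in their WT counterparts. In spermatocytes it read 7.13, 10.40 and 11.40 in KO, against 8.27, 12.92 and 10.81 in WT. Replicate 1 was lowest in all groups, and no difference passed. Its SDs were 1.47 to 2.33, while the median SD of the members was 0.17 to 0.28. The mixed arrays gave Psmd8 values up to 2.65 away from the mean of their parents, against up to 0.58 for Psma8 and 0.97 for Psmd10.

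Within a group many members had the same array highest or lowest. In KO round spermatids replicate 3 was highest for 26 of 38 members and lowest for none, against 31.0% and 32.2% of all features, and replicate 2 was lowest for 26, against 32.5%. In WT round spermatids replicate 3 was lowest for 25, against 31.3%. In spermatocytes replicate 3 was lowest for 24 members in KO, against 32.0%, and for 21 in WT, against 43.2%. The subunit groups did not all follow this order, since in KO spermatocytes the alpha subunits averaged 11.66, 11.71 and 11.23 and the non-ATPase genes 9.67, 10.12 and 10.15.

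The 9 members that were not measured are Psma1, Psma3, Psma6, Psmb9, Psmb11, Psmc6, Psmd3, Psmd6 and Psmg4. Psmd6 was detected on 2 arrays, both of KO round spermatids, Psmb9 on 1, and the others on none. Psmb11 is the form known from the thymus. Psma1, Psma3 and Psma6 are parts of the core of every proteasome. Psmc6 and Psmd3 are parts of the cap, which other activators can replace. That the probes of these genes were not detected says nothing of the subunits.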

How the data were processed

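RNA of 24 samples in 4 groups was measured on Illumina bead arrays. The authors deposited a non-normalized intensity per probe and array and a detection p-value, per the file headers; scanner software and background treatment are not given in the sources used here. A second deposited table holds processed intensity values, quantile-normalized on a linear scale, which keep the rank order of the first. Genes come from the platform's probe-to-gene table, and slides are not named.

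Background correction and quantile normalisation on the log2 scale used neqc of limma 3.58.1 in R 4.3.3 (offset 16) on all 24 arrays. A probe was kept, as 38.4% were, if 3 or more of the 12 direct arrays gave it a detection p below 0.01. The brightest probe on average stands for a gene, and probes without a gene stayed as features, 12705 in all. The test was a linear model of the 4 groups over the direct arrays (lmFit and eBayes, residual degrees of freedom 8), and a gene was called at a Benjamini-Hochberg adjusted p under 0.05 over all features. Adjusted p-values of genes come from this model, and those of second probes from the same model over 17401 single probes. Array replicates are separate fractionations of pooled mice, and their number limits the precision. The log2 signal deposited as processed was one alternative, beside other normalisations, filters, weights, blocks and left-out arrays.

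Same numbers mark the same fractionation of a genotype, by the labels, so the stages are paired within a genotype. For arrays of a pair the residuals had correlations between -0.20 and 0.41, and for arrays of different fractionations between -0.45 and 0.25. KO and WT arrays share only a number.

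Values of every direct array are given for members called between genotypes, for Psma8, Psme4, Psme3, Psmb8, Psmb10 and Psmd10, and for the 5 largest falls and the rises between stages called in both genotypes; Psmd1, Psmd8, Psme1 and Psme2 were added after their values were seen. Members and lists were chosen with earlier results of these data known.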

Additional observations from a re-analysis of the deposited data

How the results depend on the processing

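Of 42 called differences of single members, 22 passed under all settings tried beforehand, among them those of Psma8, Psmd10 and Psmd1 between the stages in both genotypes. The count of members called in KO against WT round spermatids was 5, and it was 0 with cyclic loess, 9 with array weights, 1 with the replicate block on a number shared by KO and WT, and 0 to 6 when single arrays were left out. In spermatocytes it was 0, and 24 on the mixed arrays alone. The difference between stages was called for 0 members, for 1 with array weights and for 22 on the mixed arrays alone. In KO round spermatids against KO spermatocytes 15 were called, 25 on the mixed arrays alone, 9 with the replicate block on fractionation, which the labels pair, and 8 to 15 when single arrays were left out. In WT the count of 22 stayed between 19 and 27 in every alternative. On the mixed arrays alone the KO stage difference turned for Psme4 (-0.49), Psmb10 (0.52), Psmb1 (0.19), Psmb3 (0.30), Psmb4 (0.0905) and Psmg1 (0.17). Single probes, an alternative chosen after seeing the data, turned several members. Among them were Psmd12 in KO against WT round spermatids (-0.0564) and between WT stages (0.77), and Psmg2 between WT stages (0.0711 and 0.50). Others were Psmd7 in KO against WT round spermatids (-0.76) and Psmc2 between WT stages (1.93). In KO against WT round spermatids all probes had the same sign in 12 of 19 genes with several probes. The causes were not tested. Fractionation as a random block changed the call of no named member. Arrays number 3 per group, which limits what can be called, and Psmb8, detected on 7 of 12 arrays, lies near background.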

Other observations

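Pomp, which helps assemble the core and is not among the Psm genes, read 10.93 in KO and 10.94 in WT round spermatids, and 11.85 in KO and 12.25 in WT spermatocytes. Sem1, a small lid subunit without a Psm symbol in the table, was higher in round spermatids, by 0.82 in KO (adjusted p = 0.000932) and by 0.63 in WT (adjusted p = 0.00322). In this it went the other way from most of the measured 19S members, of which Psmd10 alone was called higher by its brightest probe.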
